A study of Arabidopsis thaliana with 8 samples.

Results

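The WRKY transcription factors were followed in rosette leaves of Arabidopsis thaliana as 60 of the 27826 loci on the array, chosen as those on a list of WRKY locus identifiers. All 60 had a value on every array. Subgroups follow the standard classification of the family, not a file of the study: 12 members belong to group I, 3 to IIa, 8 to IIb, 14 to IIc, 7 to IId, 7 to IIe and 9 to group III. WRKY45, which some lists place in group I, was counted in IIc. Other WRKY loci of the genome were not analysed here.

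WRKY proteins bind DNA through a domain named after the peptide it holds, next to a zinc finger. Group I proteins carry a pair of these domains, while groups II and III carry a single one and differ in the zinc finger. Most recognise the W box, a short element found in promoters of defence genes and of many WRKY genes themselves, so members regulate each other. In leaves the family is best known for immunity, senescence and stress responses, and MAP kinases and VQ-motif proteins are known partners of some members. No sequence is shown, because none was used here.

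Leaves of plants labelled as mutant, with a depleted level of the N-terminal acetyltransferase NAA50, gave 4 arrays, and leaves of wild type plants gave the other 4. Plants of both groups were of the Col-0 accession, were 7 weeks old, had grown on soil in short days and were sampled 2 h after the lights came on. The allele or construct behind the depletion was not stated in any source at hand. Nor do the labels tie each array to a plant of its own, so the p-values cover the spread among 8 arrays, which may be technical. The number of arrays limits the precision. The values are log2 expression from RMA, a method that summarises the probes of a locus, with 0.693 as the lowest value and a median of 2.73 on every array.

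The targeted gene went against the label. NAA50 (AT5G11340) had log2 values of 10.43, 10.52, 10.24 and 10.33 on the arrays labelled NAA50-depleted, against 4.71, 4.54, 4.23 and 4.75 on the wild type arrays, a 56.7-fold higher level. The label does not say whether transcript or protein was depleted, and whether the labels of the groups were exchanged cannot be settled from the files. An exchange would turn every direction below. The arrays labelled NAA50-depleted are called labelled-depleted from here on. The 3 mesophyll markers averaged 11.58 to 11.71 on the labelled-depleted arrays and 11.66 to 11.75 on the wild type arrays, and 0 of 3 changed. The root markers lay between 1.26 and 1.79, the flower markers between 1.02 and 2.01 and the seed markers between 1.37 and 3.25, and 0 of these 7 changed. Of the epidermis and phloem markers, 0 of 4 and 0 of 2 changed. Among the 4 guard cell markers the potassium channel gene KAT1 fell, by 0.92 ± 0.21 (SE), where 7.58% of all loci fell. At an adjusted p under 0.05, FAMA (-0.35), MYB60 (-0.45) and GC1 (0.24), which went the other way, did not change. The mean of the list was 4.77 to 5.31 on the labelled-depleted arrays and 5.14 to 5.66 on the wild type arrays. The part of guard cells in the results below was not tested, and in these bulk leaves fewer cells of a type and less RNA per cell cannot be told apart.

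Part of the family stood higher on the labelled-depleted arrays. In the limma fit of all loci, 19 of the 60 members rose and 0 fell at an adjusted p under 0.05, where 6.95% of all loci rose and 7.58% fell. The other 41 members did not pass. At an unadjusted p under 0.05 the counts were 21 higher and 0 lower, where 11.3% of all loci were higher and 14.6% lower. At least 2-fold increases were found for 14 members, where 3.19% of all loci rose as much, and 4-fold increases for 8, where 0.852% did. The groups did not overlap, with all 4 labelled-depleted arrays above all 4 wild type arrays, at 18 members, against 8.48% of all loci. The opposite order was found at 0 members and 10.4% of all loci. The median member differed by 0.30 on the log2 scale, while the median of all loci was -0.03. A positive difference was seen at 47 members, where 44.8% of all loci had one, and a negative one at 13, the lowest being -0.45.

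**Figure D1:**
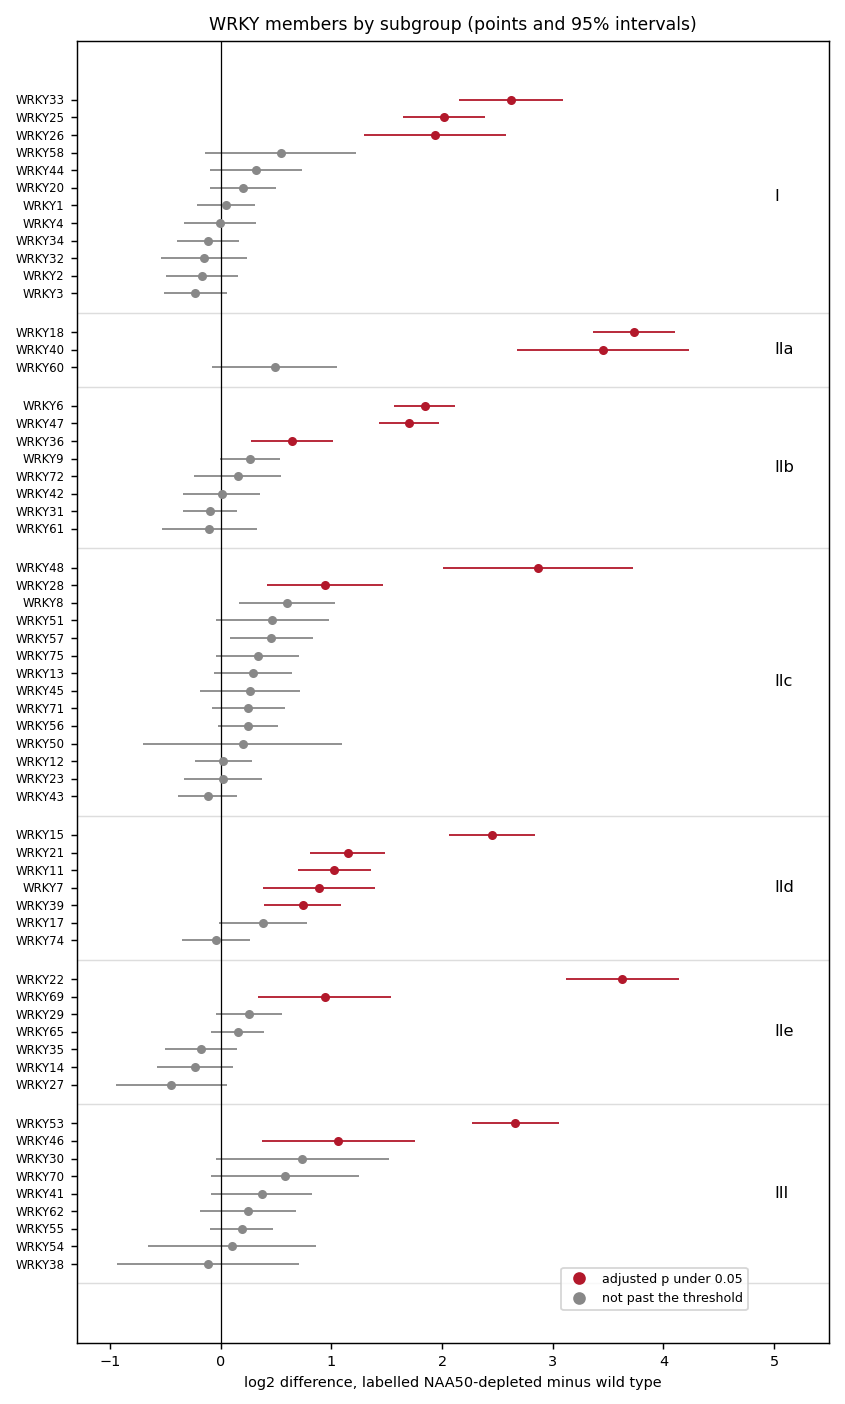
Log2 differences (labelled NAA50-depleted minus wild type, x axis) of the 60 WRKY members with 95% intervals, grouped by subgroup and sorted within each. The 19 members past the threshold, drawn in red, all lie right of 0 and are found in every subgroup, from 2 of 14 in IIc to 5 of 7 in IId. Over all loci 6.95% rose.

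Subgroup IIa holds 3 members, WRKY18, WRKY40 and WRKY60, which act together, largely as repressors, in basal immunity and abscisic acid responses. WRKY18 (AT4G31800) had log2 values of 8.17, 8.77, 8.49 and 7.99 on the labelled-depleted arrays, against 4.67, 4.51, 4.82 and 4.50 on the wild type arrays. WRKY40 (AT1G80840) had 7.53, 8.91, 8.46 and 6.96 on the labelled-depleted arrays, against 4.10, 4.66, 4.61 and 4.67 on the wild type arrays. For both genes the groups were far apart, and labelled-depleted replicates 2 and 3 were the highest. The increases were 13.3-fold for WRKY18 (log2 difference 3.73, 95% interval 3.36 to 4.10, adjusted p = 8.83e-07) and 11-fold for WRKY40 (3.45, interval 2.68 to 4.23, adjusted p = 7.9e-05). WRKY60 (AT2G25000) did not follow: its values were 4.23, 3.49, 2.99 and 3.49 on the labelled-depleted arrays and 3.34, 3.19, 3.26 and 2.47 on the wild type arrays. Its groups overlapped, and its difference of 0.49 had an interval of -0.08 to 1.05 (adjusted p = 0.274).

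Among the group I members, 3 of 12 rose, where 6.95% of all loci did, and these were WRKY33, WRKY25 and WRKY26. WRKY33 directs camalexin synthesis and resistance to necrotrophic fungi as a substrate of the MAP kinases MPK3 and MPK6, and all 3 genes have a role in heat tolerance. WRKY33 (AT2G38470) had log2 values of 9.90, 10.66, 10.18 and 9.94 on the labelled-depleted arrays, against 7.01, 7.68, 7.87 and 7.63 on the wild type arrays. WRKY25 (AT2G30250) had 6.43, 6.39, 6.66 and 6.33 on the labelled-depleted arrays, against 4.08, 4.88, 4.50 and 4.27 on the wild type arrays. WRKY26 (AT5G07100) had 4.26, 4.77, 5.29 and 4.23 on the labelled-depleted arrays, against 2.67, 3.24, 2.96 and 1.95 on the wild type arrays. None of the 3 genes had overlapping groups. The folds were 6.15 for WRKY33 (adjusted p = 1.72e-05), 4.06 for WRKY25 (adjusted p = 2.04e-05) and 3.83 for WRKY26 (adjusted p = 0.001). The wild type mean of WRKY26, 2.70, lay just below the array median, so the size of its change rests on dim wild type values.

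The other 9 members of group I did not pass the threshold, with differences from -0.23 to 0.54. WRKY3, known with WRKY4 from resistance to Botrytis, differed by -0.23 (interval -0.51 to 0.05), and WRKY4 by -0.01 (interval -0.33 to 0.32). WRKY2, which acts in seed germination and in the polarity of the zygote, differed by -0.17 (interval -0.50 to 0.15). WRKY44, also called TTG2, a regulator of trichomes and the seed coat, differed by 0.32 (interval -0.10 to 0.74). WRKY1 (0.05), WRKY20 (0.20), WRKY32 (-0.15) and the pollen factor WRKY34 (-0.11) also stayed short of the threshold. For WRKY58 the difference was 0.54 with an adjusted p of 0.319, and it passed, at 0.85, without wild type replicate 2.

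In subgroup IIb, 3 of 8 members rose, where 6.95% of all loci did. WRKY6 (AT1G62300), a regulator of senescence that also represses the phosphate exporter gene PHO1, had log2 values of 6.62, 7.10, 7.005 and 6.83 on the labelled-depleted arrays, against 5.09, 5.05, 5.04 and 5.01 on the wild type arrays. WRKY47 (AT4G01720) had 6.16, 6.21, 6.36 and 6.31 on the labelled-depleted arrays, against 4.64, 4.52, 4.74 and 4.33 on the wild type arrays. Both had narrow groups that did not overlap, with increases of 3.59-fold (adjusted p = 5.9e-06) and 3.25-fold (adjusted p = 7.71e-06). WRKY36 rose by 0.64 ± 0.17 (SE, adjusted p = 0.0257). It no longer passed when any of 4 arrays was left out, which were wild type replicates 1 (0.53) and 2 (0.62) and labelled-depleted replicates 2 (0.54) and 3 (0.60). WRKY42, which represses PHO1 as WRKY6 does, differed by 0.01 (interval -0.34 to 0.35). WRKY72, a gene of basal immunity, differed by 0.15, WRKY9 by 0.26, WRKY31 by -0.10 and WRKY61 by -0.10.

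Subgroup IId, whose proteins bind calmodulin, had the most members past the threshold, 5 of 7, where 6.95% of all loci rose. Its median difference was 0.88. WRKY15 (AT2G23320) had log2 values of 6.58, 7.30, 7.09 and 7.09 on the labelled-depleted arrays, against 4.25, 4.77, 4.76 and 4.48 on the wild type arrays. The increase was 5.46-fold (adjusted p = 7.71e-06). WRKY21 (AT2G30590) had 4.89, 4.84, 4.89 and 4.96 on the labelled-depleted arrays, against 3.88, 3.85, 4.00 and 3.28 on the wild type arrays. WRKY11 (AT4G31550), a negative regulator of resistance to bacteria, had 8.21, 8.28, 8.22 and 8.27 on the labelled-depleted arrays, against 6.96, 7.06, 7.20 and 7.66 on the wild type arrays. In both genes the labelled-depleted arrays lay close together and above every wild type array. WRKY21 rose 2.21-fold (adjusted p = 0.000482) and WRKY11 2.03-fold (adjusted p = 0.000853).

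The smaller increases in IId were those of WRKY7, by 0.88 ± 0.23 (SE, adjusted p = 0.0244), and WRKY39, by 0.74 ± 0.16 (adjusted p = 0.00874). WRKY7 did not pass with the replicate number as a block (adjusted p = 0.0638). It also missed the threshold when any of 4 arrays was left out, which were wild type replicates 1 (0.74) and 3 (0.84) and labelled-depleted replicates 1 (0.76) and 3 (0.75). Both group means of WRKY39, 2.20 and 1.46 on the labelled-depleted and wild type arrays, lay below the array median. WRKY17, which acts with WRKY11 in basal resistance, differed by 0.38 (interval -0.02 to 0.78, adjusted p = 0.219), and WRKY74 by -0.04.

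In subgroup IIe, 2 of 7 members rose, where 6.95% of all loci did. WRKY22 (AT4G01250), which acts in flagellin signalling and in dark-induced senescence, had log2 values of 5.42, 6.26, 6.18 and 6.12 on the labelled-depleted arrays, against 2.03, 2.07, 2.95 and 2.41 on the wild type arrays. All labelled-depleted values stood at least 2 log2 units above the highest wild type value, and the difference was 3.63 with an interval of 3.12 to 4.14 (12.4-fold, adjusted p = 4.29e-06). The wild type mean, 2.36, lay below the array median. WRKY29, placed beside WRKY22 in flagellin signalling, had 3.10, 3.22, 3.39 and 3.13 on the labelled-depleted arrays, against 2.88, 2.72, 3.25 and 2.97 on the wild type arrays. Its groups overlapped and its difference was 0.25 (interval -0.04 to 0.55, adjusted p = 0.274). WRKY69 rose by 0.94 ± 0.27 (SE, adjusted p = 0.0402) with overlapping groups. WRKY69 failed the threshold when any of 6 arrays was dropped, which were wild type replicates 1 (0.92), 2 (0.80) and 3 (0.97) and labelled-depleted replicates 1 (0.91), 2 (0.98) and 3 (0.69). WRKY27, which promotes wilt symptoms after Ralstonia infection, had the lowest difference of all members, -0.45 (interval -0.94 to 0.05, adjusted p = 0.25). The other 3, WRKY14 (-0.23), WRKY35 (-0.18) and WRKY65 (0.15), lay nearer to 0.

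Subgroup IIc was the largest and had 2 of 14 members past the threshold, both higher, where 6.95% of all loci rose. WRKY48 (AT5G49520), a negative regulator of basal resistance, had log2 values of 5.82, 6.61, 7.14 and 5.62 on the labelled-depleted arrays, against 3.79, 3.71, 2.31 and 3.91 on the wild type arrays. The groups did not overlap although wild type replicate 3 lay far below the others. The increase was 7.29-fold (difference 2.87, interval 2.01 to 3.72, adjusted p = 0.000535). WRKY28, an activator of the salicylic acid synthesis gene ICS1, rose by 0.94 ± 0.24 (SE, adjusted p = 0.0204), with both group means below the array median and overlapping groups. It no longer passed when any of 4 arrays was left out, which were wild type replicates 3 (0.84) and 4 (0.91) and labelled-depleted replicates 1 (0.76) and 3 (0.85).

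Next in IIc came WRKY8, at 0.60 (interval 0.17 to 1.03, adjusted p = 0.0663), which passed with the replicate number as a block (adjusted p = 0.029), with array weights (0.65) and without labelled-depleted replicate 4 (0.73). WRKY57, a gene of drought and senescence responses, differed by 0.46 (interval 0.08 to 0.83, adjusted p = 0.107), and its groups did not overlap. WRKY75 and WRKY45, known from phosphate starvation, differed by 0.33 and 0.27, and the shoot branching factor WRKY71 by 0.25. WRKY12 and WRKY13, which act in opposite ways on flowering time, differed by 0.02 and 0.29. WRKY23 (0.02), WRKY43 (-0.12) and WRKY56 (0.25) did not pass either. WRKY50 and WRKY51, which link salicylic acid to jasmonate repression, differed by 0.20 and 0.47.

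In group III, 2 of 9 members rose, where 6.95% of all loci did. WRKY53 (AT4G23810), an activator of leaf senescence, had log2 values of 6.67, 7.005, 6.63 and 6.28 on the labelled-depleted arrays, against 3.60, 4.26, 3.95 and 4.12 on the wild type arrays. The groups did not overlap and the increase was 6.33-fold (adjusted p = 5.9e-06). WRKY46 (AT2G46400), which acts in drought and brassinosteroid responses, had 3.27, 4.10, 2.69 and 2.25 on the labelled-depleted arrays, against 1.88, 2.04, 2.20 and 1.93 on the wild type arrays. Labelled-depleted replicate 4 lay only just above the highest wild type array. The increase was 2.09-fold (adjusted p = 0.0434), and the call was lost without wild type replicate 1 (1.02), 2 (1.07), 3 (1.12) or 4 (1.03), without labelled-depleted replicate 1 (1.00) or 2 (0.72), and with a trended and robust variance (adjusted p = 0.0522).

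The other 7 members of group III did not pass. WRKY70 (AT3G56400), which promotes salicylic acid responses and delays senescence, had log2 values of 7.83, 7.67, 7.003 and 7.95 on the labelled-depleted arrays, against 6.06, 7.42, 7.47 and 7.18 on the wild type arrays. WRKY54 (AT2G40750), its close relative, had 5.60, 5.72, 5.05 and 5.84 on the labelled-depleted arrays, against 4.36, 6.22, 5.98 and 5.25 on the wild type arrays. Both had overlapping groups, with differences of 0.58 (interval -0.09 to 1.25) and 0.10 (interval -0.66 to 0.86). WRKY30, an early gene of oxidative stress and salicylic acid responses, reached 3.53 on labelled-depleted replicate 2 while the other 3 arrays of that group lay between 1.35 and 2.18 and the wild type arrays between 1.35 and 1.62. WRKY38 and WRKY62, which restrain salicylic acid defence, differed by -0.12 and 0.25. WRKY41 differed by 0.37 and WRKY55 by 0.19.

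**Figure D2:**
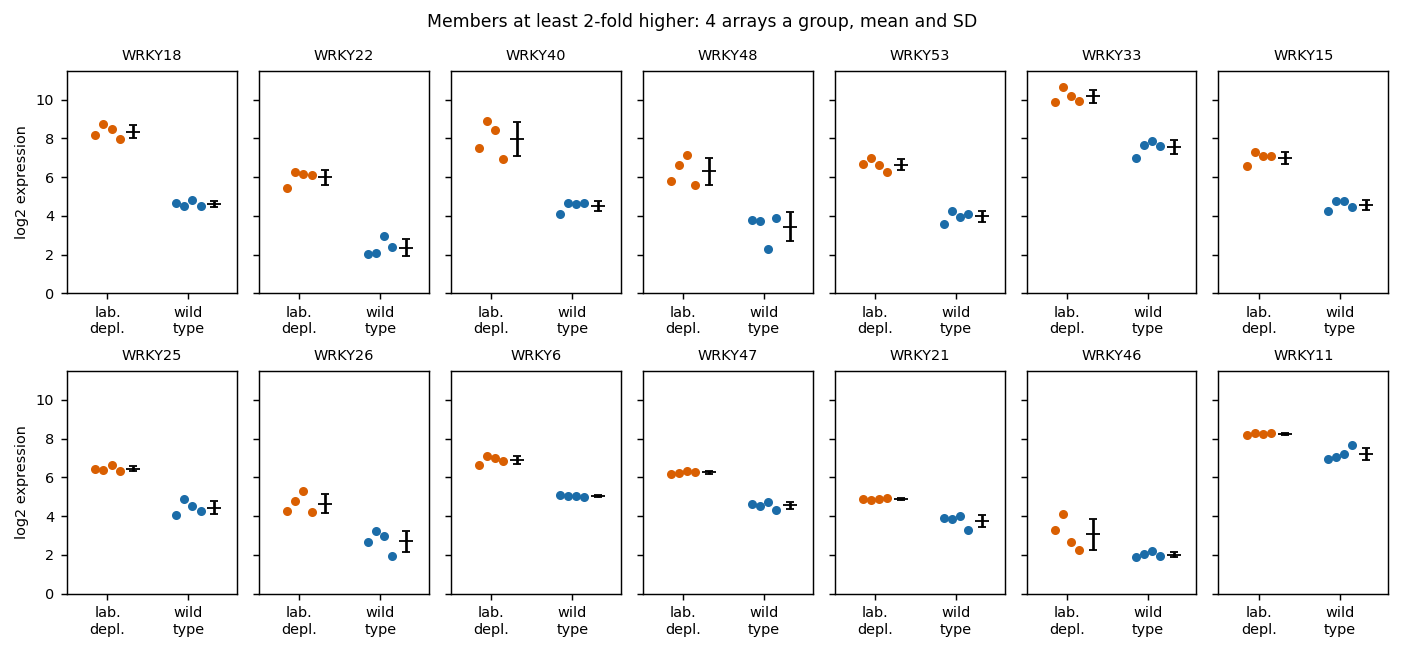
Log2 expression (y axis) on each of the 4 labelled NAA50-depleted and 4 wild type arrays for the 14 members that rose at least 2-fold, with the mean and SD of each group in black. In every panel the labelled-depleted arrays lie above all wild type arrays, most widely for WRKY18 and WRKY22 and most narrowly for WRKY46.

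The share of members that rose varied with the wild type level, as it did over all loci. With a wild type mean below the array median of 2.73, 5 of 29 members rose, where 3.04% of all loci of that range did. Between the median and the 75th percentile of 4.92 it was 11 of 23, where 11.8% of all loci rose, and above it 3 of 8, where 10.0% did. The median differences of members in the 3 ranges were 0.25, 0.60 and 0.39, while those of all loci were -0.0004, -0.05 and -0.14. The 5 members that rose from below the median were WRKY22, WRKY26, WRKY28, WRKY39 and WRKY46. Of the 60 members, 24 had both group means below the array median, and 22 of these did not pass the threshold. The matching share among all loci was not computed. Signal over background was not available, so for these dim members a missed threshold says little. The wild type mean enters both the range and the difference, and values are probe brightness, which does not rank transcript abundance between genes.

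**Figure D3:**
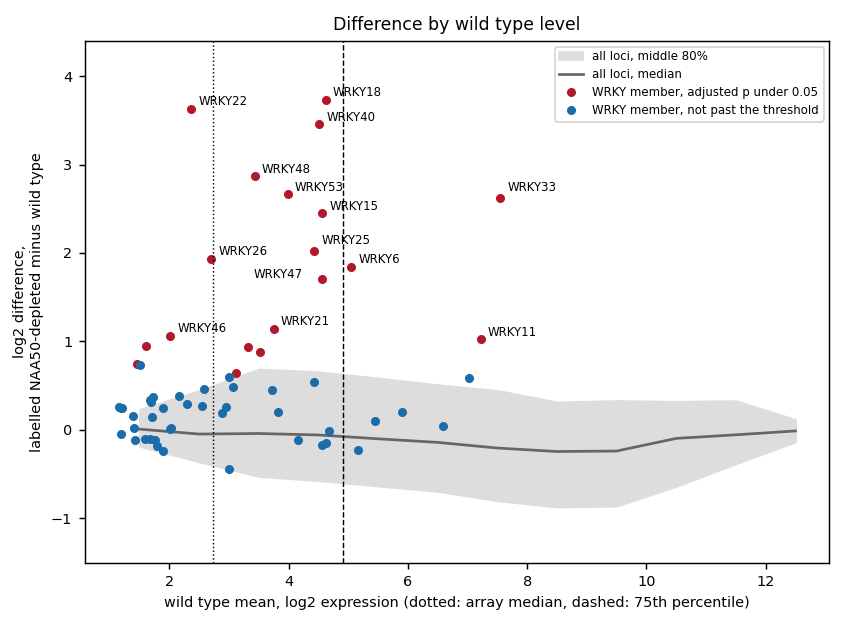
Log2 difference (y axis) against the wild type mean (x axis) for the 60 members, over the middle 80% (grey) and the median of all loci in steps of 1 log2 unit. All 14 labelled members lie above the grey band, and the 8 that rose at least 4-fold lie between wild type means of 2.36 and 7.55.

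Related members were set beside each other in 11 pairs, chosen with the values known, so that what follows is a description with no test. For each pair the log2 value of one gene minus that of the other was taken on every array, and the means of the groups were subtracted. In 8 pairs these within-array values did not overlap between the groups. The share among pairs of other loci was not computed, and several pairs join a member past the threshold to one short of it. There, a change of a single gene can separate the groups. In IIa, the difference of WRKY18 exceeded that of WRKY60 by 3.25 ± 0.40 (SE), and that of WRKY40 exceeded it by 2.97 ± 0.66, whereas WRKY18 and WRKY40 lay 0.28 ± 0.32 apart. WRKY22 exceeded WRKY29 by 3.37 ± 0.20, and WRKY53 exceeded WRKY41, which is induced by flagellin, by 2.29 ± 0.27. WRKY6 exceeded WRKY42 by 1.84 ± 0.11, and WRKY11 exceeded WRKY17 by 0.65 ± 0.15. In group I, WRKY33 exceeded WRKY25 by 0.60 ± 0.24, while WRKY25 and WRKY26 lay 0.08 ± 0.28 apart. WRKY70 exceeded WRKY54 by 0.48 ± 0.17, and WRKY69 exceeded WRKY65 by 0.79 ± 0.31. Several second members of these pairs, among them WRKY42, WRKY41, WRKY17 and WRKY65, had wild type means below the array median. Whether probes separate related members was not examined.

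**Figure D4:**
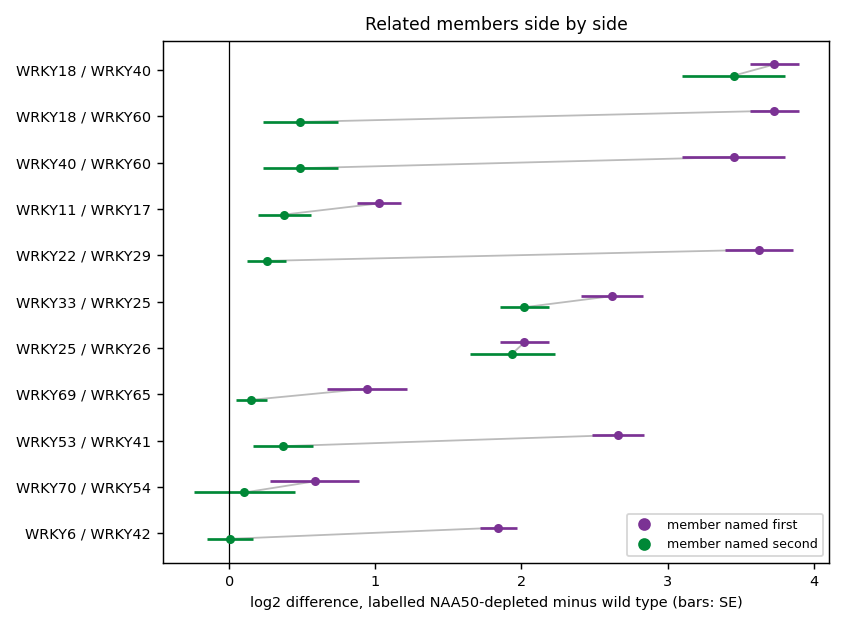
Log2 differences (labelled NAA50-depleted minus wild type, x axis, bars are SE) of both members of each of 11 related pairs, with the member named first drawn above. The members lie close together for WRKY18 with WRKY40 and WRKY25 with WRKY26, and farthest apart for WRKY22 with WRKY29.

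Members varied more between arrays of one group than a typical locus, with a median SD within groups of 0.27 against 0.21 over all loci. The widest were WRKY50 (0.76), WRKY48 (0.73), WRKY38 (0.70), WRKY30 (0.66) and WRKY40 (0.65). Among the 14 members that rose at least 2-fold, labelled-depleted replicate 2 held the highest value of its group for 9 and replicate 3 for 4, and replicates 4 and 1 held the lowest for 7 and 6. On the wild type side, replicate 1 held the lowest value for 8 of the 14. Among the 9 members with the widest SD, 5 were lowest on labelled-depleted replicate 3 (WRKY50, WRKY38, WRKY30, WRKY54 and WRKY70), and 7, all but WRKY48 and WRKY30, were lowest on wild type replicate 1. WRKY50 had 5.18, 4.05, 3.21 and 3.64 on the labelled-depleted arrays, against 2.91, 3.96, 4.52 and 3.90 on the wild type arrays. WRKY38 had 4.51, 4.25, 2.77 and 4.603 on the labelled-depleted arrays, against 3.45, 4.28, 4.53 and 4.36 on the wild type arrays. In both genes the spread within a group exceeded the difference between the groups. Without wild type replicate 1, WRKY54 turned to -0.26 and WRKY50 to -0.11, and without labelled-depleted replicate 3 WRKY38 turned to 0.30.

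**Figure D5:**
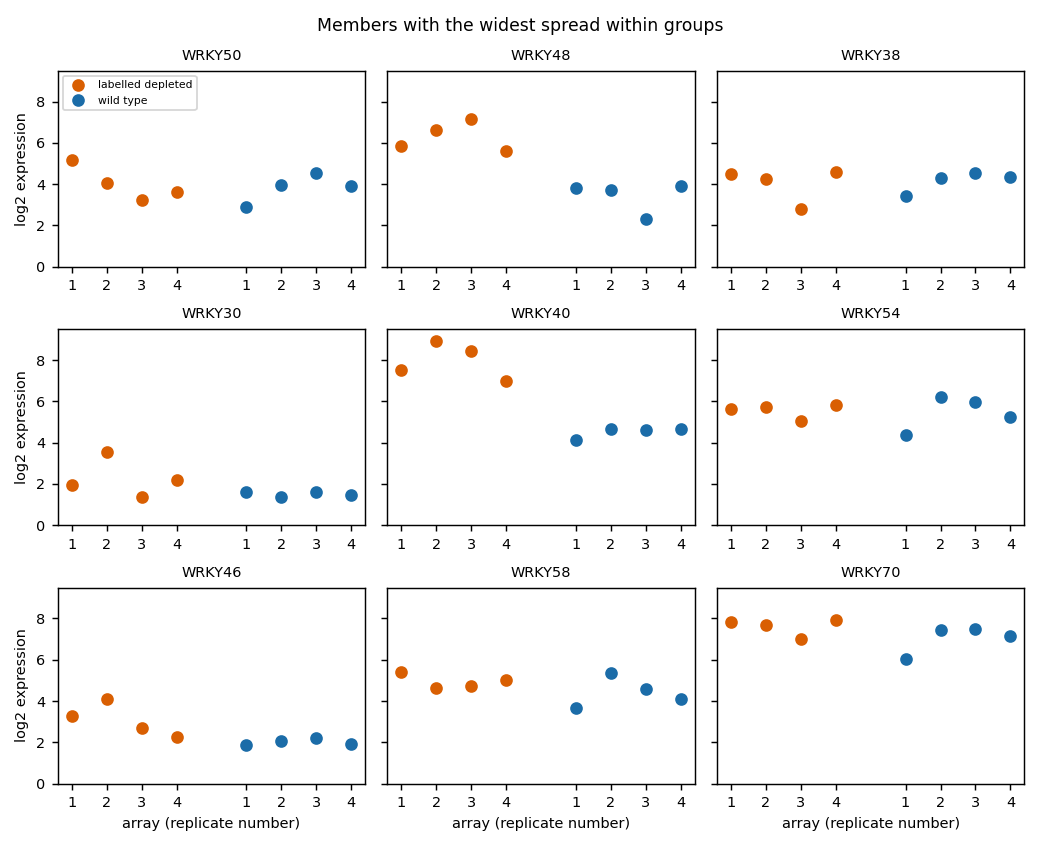
Log2 expression (y axis) on each array (replicate number, x axis) of the 9 members with the widest SD within groups, labelled NAA50-depleted arrays left and wild type arrays right. WRKY50, WRKY38, WRKY54 and WRKY70 are lowest on labelled-depleted replicate 3 and wild type replicate 1, while WRKY40 and WRKY48 lie higher on the labelled-depleted arrays throughout.

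The 3 lists that follow were chosen with earlier results of these data known, so their counts are a description with no test. Of 11 genes of the MAP kinase modules that act upstream of WRKY proteins, 5 rose and 0 fell, where 6.95% and 7.58% of all loci did. Their median difference was 0.31. MPK3, a kinase that phosphorylates WRKY33, had log2 values of 9.34, 9.77, 9.30 and 9.56 on the labelled-depleted arrays, against 7.79, 7.95, 8.24 and 8.09 on the wild type arrays. The increase was 2.78-fold (adjusted p = 5.84e-05). MPK11, a relative of MPK4, rose by 1.30 ± 0.24 (SE), from a wild type mean below the array median. MEK1, a MAP kinase kinase gene, rose by 0.99 with overlapping groups. It missed the threshold when wild type replicate 1 (0.72), 3 (1.05) or 4 (1.002) was left out, and likewise for labelled-depleted replicates 1 (0.98), 2 (0.98) and 4 (0.84). MPK6, the kinase that shares targets with MPK3 and named here after its values were seen, differed by 0.21 (adjusted p = 0.36).

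VQ-motif proteins bind WRKY domains and alter their activity. Of 12 such genes 4 rose and 0 fell, where 6.95% and 7.58% of all loci did, with a median of 0.44. CAMBP25, a calmodulin-binding member, had 5.74, 6.77, 7.18 and 5.46 on the labelled-depleted arrays, against 4.54, 4.82, 4.78 and 4.89 on the wild type arrays. Like WRKY40, it was highest on labelled-depleted replicates 2 and 3, and its increase was 2.88-fold (adjusted p = 0.00787). IKU1, a regulator of seed size that partners WRKY10, rose 2.03-fold (adjusted p = 0.000309).

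Of 21 genes reported as targets of WRKY proteins, 5 rose and 1 fell, where 6.95% and 7.58% of all loci did, with a median of 0.42. NPR1, the salicylic acid receptor gene (0.62), and ICS1 (0.56), 2 of the 5, did not pass with the replicate number as a block (adjusted p = 0.0628 and 0.083). NPR1 missed the threshold when any array but wild type replicate 2 was left out (0.49 to 0.67), and ICS1 when any but wild type replicate 3 was (0.46 to 0.61). ICS1 missed it with array weights too (0.54). MYB51, a regulator of indolic glucosinolates bound by WRKY33, had 6.42, 7.14, 5.97 and 6.93 on the labelled-depleted arrays, against 2.80, 4.27, 4.65 and 3.89 on the wild type arrays. Its groups did not overlap and its increase was 6.57-fold (adjusted p = 0.000483). The ethylene synthesis gene ACS6, also a target of WRKY33, rose 3.53-fold (adjusted p = 0.000674). PHO1, the target repressed by WRKY6, had 3.89, 3.72, 4.11 and 3.96 on the labelled-depleted arrays, against 4.31, 4.83, 4.22 and 4.33 on the wild type arrays. It fell by 0.50 ± 0.15 on the log2 scale (SE, adjusted p = 0.0497). The call of PHO1 was lost without wild type replicate 1 (-0.54), 2 (-0.37) or 4 (-0.53), without labelled-depleted replicate 1 (-0.49), 2 (-0.43) or 4 (-0.51), after cyclic loess (-0.44), with a trended and robust variance (adjusted p = 0.0611) and with the replicate number as a block (adjusted p = 0.108). PAD3 and CYP71A13, the camalexin synthesis genes downstream of WRKY33, were named after their values were seen. PAD3 differed by 0.60 ± 0.20 (adjusted p = 0.0677) and CYP71A13 by 0.90 ± 0.44 (adjusted p = 0.222). PAD3 passed without labelled-depleted replicate 3 (0.77) and with a trended and robust variance (adjusted p = 0.0442). Its means on the labelled-depleted and wild type arrays, 1.83 and 1.22, both lay below the array median.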

How the data were processed

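The authors deposited expression values on a scale read here as log2, the usual output of RMA, which the submitters' processing notes name. Its version, the chip definition, the build and the log base were not stated in any source at hand. Sorted values were identical on all 8 arrays, so the table had been quantile-normalized and hides any global shift. Sample titles gave the groups and replicate numbers. Scan dates were not analysed here, and group and any batch matching it cannot be told apart.

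All 27826 loci, unfiltered, were fitted on group alone with limma 3.58.1 (lmFit and eBayes) in R 4.3.3. P-values were two-sided and Benjamini-Hochberg adjusted over all loci, with a threshold of 0.05. The members, subgroups and lists were chosen with earlier results of these data known. All 60 members matched the RefSeq gene table of TAIR10.1, and 10 of 22 listed VQ loci were left out because that table does not name them so. All members were named, with the value on each array for those past the threshold and at least 2-fold changed, and, for the 3 lists, the 2 largest changes per direction past the threshold. MPK6, MEK1, NPR1, ICS1, PAD3, CYP71A13, ACS2, CYP71A12, FRK1, SAG12 and JAZ8, and array values of smaller or uncalled members, were added with the values in view.

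Each fit was repeated with a replicate block, with median centring, quantile or cyclic loess normalization, with a filter on dim loci (4 or more arrays above the 25th percentile), with a trended and robust variance, with array weights, without each array, at an adjusted p of 0.01 and with treat against a log2 change of 0.25. For the pairs, cyclic loess, array weights and left-out arrays were added after seeing the data. Same-numbered arrays deviated from their group means with correlations of -0.049, 0.023, -0.033 and 0.039 across loci for replicates 1 to 4, so the numbers were not treated as pairs. The fit was tested on simulated data. It called 10.4% of 67 loci changed by 0.5 on the log2 scale, 73.1% of 67 changed by 1 and 97.0% of 66 changed by 2. Of its 124 calls, 4 were false. Far fewer loci were changed there than were called here, so these shares do not carry over directly.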

Additional observations from a re-analysis of the deposited data

Results flagged for a closer look

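Dixon's test set 1 array apart from the other 3 of its group in 6 of the 158 groups of values examined, and about 1 in 20 would be marked by chance. WRKY40 was 4.10 on wild type replicate 1, while the other 3 wild type arrays lay between 4.61 and 4.67. WRKY48 was 2.31 on wild type replicate 3, with the others between 3.71 and 3.91, and WRKY57 was 3.42 on wild type replicate 2, with the others between 3.78 and 3.85. On the labelled-depleted side, WRKY41 was 2.76 on replicate 1, with the others between 1.76 and 1.92, and WRKY27 was 2.24 on replicate 2, with the others between 2.62 and 2.68. PAD3, the camalexin synthesis gene, was 1.39 on wild type replicate 3, with the others between 1.15 and 1.18.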

How the results depend on the processing

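Median centring and quantile normalization could change nothing, since the arrays already held identical sorted values. The count of members that rose was 19 with the replicate number as a block, cyclic loess normalization and the filter on dim loci, which kept 50 members, 18 with a trended and robust variance, 20 with array weights, 14 at an adjusted p of 0.01 and 13 with treat. It was 15 to 20 with single arrays left out, and 0 members fell under any of these. Of the 19 members, 18 were also called with the block, and 14 kept the call without any single array. The other 5 were WRKY7, WRKY28, WRKY36, WRKY46 and WRKY69. Over all loci the block called 3545 against 4042. The median member difference was 0.26 to 0.38 with single arrays left out, 0.32 after cyclic loess and 0.42 with the filter. Not every member short of the threshold was followed under the alternatives, and WRKY4 (-0.01), WRKY12 (0.02) and WRKY23 (0.02), for example, were not. Among the members that were followed, signs turned for 4, none past the threshold, and for 1 pair. WRKY38 ran from -0.3559 to 0.3012 with single arrays left out, and was positive without labelled-depleted replicate 3 and, at 0.0068, without wild type replicate 3. WRKY42 ran from -0.073 to 0.1247, with -0.0112 and -0.0706 when wild type replicates 1 and 2 were dropped, -0.073 and -0.0623 when labelled-depleted replicates 2 and 3 were, and -0.0013 with array weights. WRKY50 ran from -0.1883, without labelled-depleted replicate 1, to 0.4665 and was -0.1075 without wild type replicate 1. WRKY54 ran from -0.2611, without wild type replicate 1, to 0.3574. WRKY25 minus WRKY26 ran from -0.0354, without labelled-depleted replicate 1, to 0.2786, with -0.0217 when wild type replicate 1 was dropped and -0.0116 when labelled-depleted replicate 4 was. The cause was not tested. Signal over background was not available, so dim members limit the family counts.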
